A study of Mus musculus with 29 samples.

Results

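Fasting was examined in tibialis anterior (TA) muscle of floxed control mice of the p110β line, 3 fasted against 3 fed, which gave 6 of the 29 RNA-Seq libraries of the series. The libraries were taken by their labels, Fast.p110beta.WT and Fed.p110beta.WT, and they keep here the numbers of those labels: 16, 17 and 18 for the fed mice and 23, 24 and 25 for the fasted mice. All mice were males of strain C57BL/6J, 2–3 months old, although the supplement describes the p110β-floxed mice as having a less pure C57BL/6 background than the p110α-floxed ones. The controls carried the floxed p110β allele, with loxP sites around exon 2 of the gene, and their labels name them WT. Fed mice ate freely and fasted mice were kept in a new cage without food for 24 h. M-p110βKO mice carried the same allele with Cre recombinase driven by the human α-skeletal actin (HSA) promoter, which is active in muscle fibers and not in the other cells of a muscle. The p110α line, with its own floxed controls, enters only where the fasting responses of the controls were compared. Each library is 1 mouse, so p values measure the spread between mice.

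Muscle holds most of the body's protein, and in fasting it shifts from glucose to fatty acids and releases amino acids. When insulin falls, AKT no longer holds FoxO transcription factors out of the nucleus, and FoxO targets include ubiquitin ligases, autophagy genes and components of insulin signaling itself. Glucocorticoids rise in fasting and add to this program, and PPAR factors, which sense fatty acids, turn on genes of fat oxidation.

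Assigned reads per library were 5859311–8269530, with a median of 7733518, and mitochondrially encoded genes held 7.73–11.5% of them. The libraries did not stand alike. Adipocyte transcripts were present in fasted libraries 23 and 24 and near 0 in the others, and transcripts of liver cells were present in fasted library 25. Counts of libraries 23 and 24 differed by a chi-square per degree of freedom of 5.98, against 15.06 and 17.63 for each with library 25 and 8.05–10.57 among the fed libraries, where a library sequenced again would give about 1. In a principal component analysis of the 14 libraries of the p110β line, the first axis (47.5% of variance) placed the 3 fasted controls at 28.9–41.7 and the 3 fed controls at -32.6 to -20.7. The second axis (10.6%) placed 23 and 24 at -30.2 and -34.8 and library 25 at 2.57. The floxed gene itself, Pik3cb, which encodes p110β, read 10.5, 9.98 and 10.7 CPM (read counts scaled to library size) in fed and 8.73, 9.34 and 10.3 in fasted controls (log2 fold change -0.14 ± 0.14 (SE), adjusted p = 0.51). Pik3ca, which encodes p110α, read 144, 159 and 121 CPM fed and 109, 107 and 136 fasted (-0.26 ± 0.12, adjusted p = 0.13). Adjusted p values throughout are from the quasi-likelihood test of edgeR with Benjamini-Hochberg adjustment over all genes tested, CPM values are scaled by TMM factors, and the 3 values of a group are given in the order of library number.

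Of 12249 genes tested, 1780 rose and 1517 fell with fasting at an adjusted p under 0.05, which was 14.5% and 12.4% of the genes (26.9% in all). Of the called genes, 474 rose and 464 fell at least 2-fold, and 110 rose and 84 fell at least 4-fold. In 3152 of the 3297 called genes no fasted library overlapped a fed library, and groups were apart in this way for 41.4% of all genes tested. The balance between directions moved with the scaling: upper-quartile factors in place of TMM gave 1453 rises and 1976 falls. Without libraries 23 and 24 the counts were 1254 and 841 (16.2% of the genes tested), and without library 25 they were 1516 and 1165 (21.3%). Of the 3297 genes, 1764 were called in the same direction without 23 and 24, and 2418 without 25. No called gene was called in the opposite direction in either fit.

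**Figure D1:**
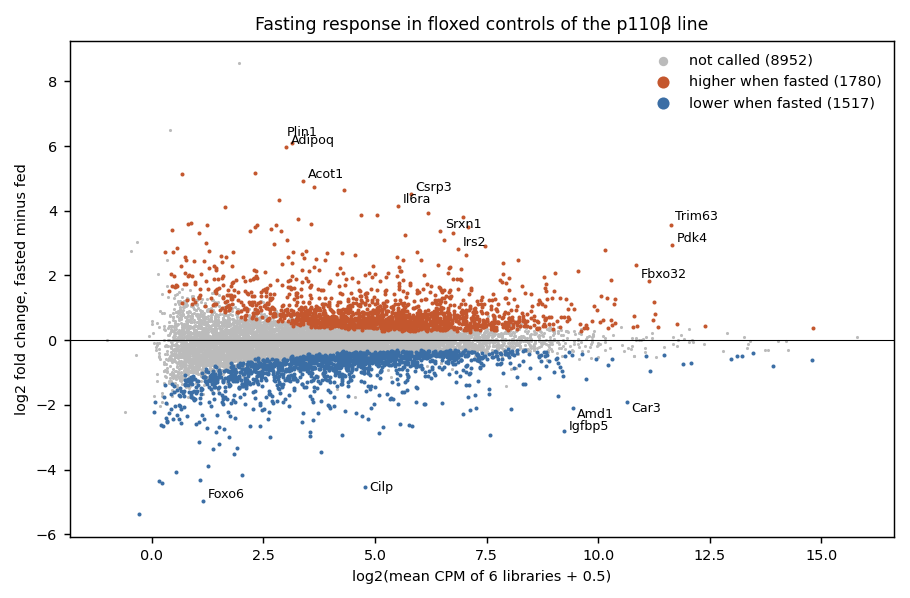
Each point is 1 of the 12249 genes tested, with log2 of its mean CPM over the 6 libraries (plus 0.5) on the x axis and its log2 fold change, fasted minus fed, on the y axis. The 1780 genes called higher are orange, the 1517 called lower are blue, and Trim63, Pdk4 and Fbxo32 lie among the most abundant of the genes that rose most.

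Among genes whose mean level reached 1 on the log2 CPM scale and whose groups were separate, the 12 largest rises were Adipoq, Gm10309, Acot1, Csrp3, Hp, Il6ra, Tmem82, Nr4a3, Fos, Ankrd2, Atf3 and Mt2, with log2 fold changes of 3.58 to 5.96. Acot1, a cytosolic enzyme that frees fatty acids from coenzyme A, read 0.609, 0.507 and 0.721 CPM fed and 21.0, 22.0 and 15.1 fasted (log2 fold change 4.92 ± 0.41, adjusted p = 1.3e-07). Csrp3, a muscle LIM protein of the Z-disc, read 5.23, 4.23 and 4.33 CPM fed and 74.2, 74.1 and 172 fasted (4.52 ± 0.38, adjusted p = 1.5e-07). Ankrd2, a stretch-responsive ankyrin repeat protein of the sarcomere, read 15.3, 18.8 and 15.9 CPM fed and 195, 184 and 325 fasted (3.82 ± 0.39, adjusted p = 1.5e-06). For Csrp3 and Ankrd2 library 25 stood highest, while separate groups were a condition for naming them here. Il6ra, the interleukin-6 receptor, read 4.26, 4.74 and 5.65 CPM fed and 70.9, 77.7 and 110 fasted (4.13 ± 0.38, adjusted p = 4.5e-07). Adipoq and Hp rested on libraries 23 and 24: Adipoq, the adipocyte hormone adiponectin, read 19.2 and 24.8 CPM there and 0.436 in library 25, and Hp, haptoglobin, read 17.8 and 17.7 CPM there and 3.05 in library 25. Without 23 and 24 neither was called (adjusted p = 0.77 for Adipoq and 0.17 for Hp).

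The 12 largest falls under the same limits included Foxo6, Cilp, F830016B08Rik, Gm4841, Pla2g5, Pld5, Gm43063, 2310001K20Rik, Cited4, Gm37759 and Cntnap2, with log2 fold changes of -4.98 to -2.99. F830016B08Rik and Gm4841 were not called with 6 adipocyte markers as a covariate (-3.29, adjusted p = 0.077, and -2.97, adjusted p = 0.12). Without libraries 23 and 24 they stood at -4.18 and -3.16. Foxo6, a FoxO factor that differs from the others in its shuttling out of the nucleus, read 2.43, 3.21 and 4.33 CPM fed and 0.127, 0 and 0.145 fasted. These are 75 reads in the fed libraries and 2 in the fasted ones, a ratio of 37.7 with an exact 95% interval of 10.1–317 that covers counting error only. Cited4, a transcriptional coactivator partner, read 5.11, 5.41 and 7.21 CPM fed and 0.633, 0.384 and 0.727 fasted (-3.33 ± 0.40, adjusted p = 7.7e-06). That every fed library lay above every fasted one was a condition for naming both genes here. Cilp, a cartilage matrix protein, was uneven among the fed mice, at 3.53, 67.5 and 82.9 CPM against 2.53, 2.18 and 1.75 fasted (-4.55 ± 0.74, adjusted p = 0.00019), so library 16 lay just above the highest fasted library, and limma-voom did not call the gene.

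Ubiquitin ligases of muscle wasting included the most abundant genes that rose. Trim63, which encodes MuRF1, the ligase that marks thick-filament proteins for degradation, lies on chromosome 4 (GRCm38, 134315120–134329629). It read 389, 544 and 560 CPM in fed controls and 5713, 5358 and 6471 in fasted controls, an 11.7-fold rise (log2 fold change 3.55 ± 0.28, adjusted p = 6.7e-08). Fbxo32, which encodes atrogin-1, read 587, 629 and 620 CPM fed and 2801, 2992 and 3455 fasted, a 5.04-fold rise (2.33 ± 0.21, adjusted p = 3.4e-07). The groups were widely apart in both genes, and library 25 was the highest of the 6. Groups did not overlap in 41.4% of all genes tested. Cblb, a ligase whose targets include IRS1 (1.54 ± 0.17), Ubr2, an N-end rule ligase (1.25 ± 0.11), and Fbxo21 (1.05 ± 0.12) rose too. Of 16 ligases tested 7 rose and 3 fell, with a median log2 fold change of 0.34 against -0.02 over all genes tested. The falls included Znrf1 (-0.60 ± 0.11) and Trim32 (-0.62 ± 0.14).

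The Trim63 promoter is shown because this gene had the largest rise among the ligases and is a textbook target of both FoxO factors and the glucocorticoid receptor. The window runs from 250 bases before to 50 after the RefSeq start (GRCm38.p6, chr4:134314870-134315169, plus strand). Capitals mark GAACAGTCTGTTC, a match to the palindromic glucocorticoid response element, followed 1 base on by TGTTTAC, a match on the minus strand to the FoxO motif GTAAACA.
Trim63: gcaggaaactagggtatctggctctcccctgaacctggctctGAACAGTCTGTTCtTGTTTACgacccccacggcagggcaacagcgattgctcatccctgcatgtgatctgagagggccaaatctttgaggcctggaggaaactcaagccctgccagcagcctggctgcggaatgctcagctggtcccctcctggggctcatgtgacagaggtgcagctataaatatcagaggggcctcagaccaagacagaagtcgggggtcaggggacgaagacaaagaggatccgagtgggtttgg
RefSeq windows were found for 9286 of the tested genes. GTAAACA stood on either strand in 3.12% of them and the glucocorticoid response element in 0.420%. Of the genes of the ligase, pyruvate dehydrogenase and PPAR lists that are named here, Pdp2 was the other with a match, to CACGTG, the E-box, which 12.1% of the genes held. A match says that these letters stand in the window and nothing of what binds there.

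**Figure D2:**
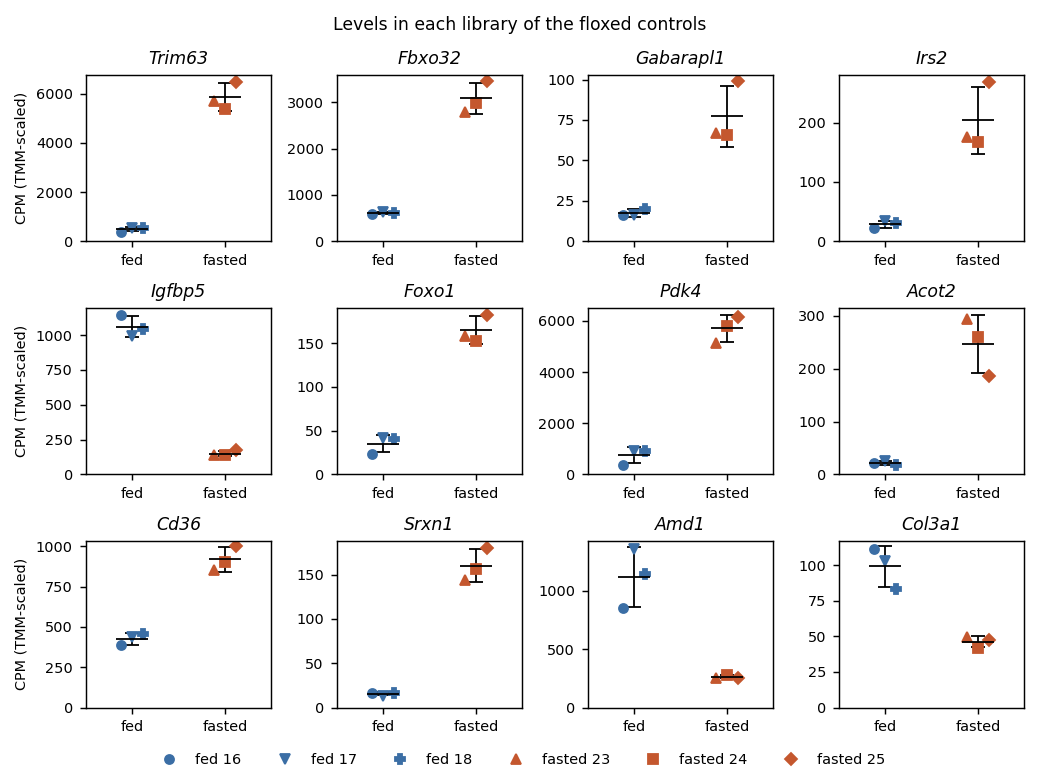
CPM (TMM-scaled, linear axis from 0) of 12 named genes in each fed library (blue) and each fasted library (orange), with the mean and SD of 3 libraries in black and a symbol for each library. In each panel the fed and fasted libraries do not overlap, as for Trim63 (389–560 fed and 5358–6471 fasted) and Igfbp5 (992–1146 fed and 136–174 fasted). The same holds for 41.4% of all genes tested.

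Components of insulin and IGF signaling moved in both directions. Irs2, the insulin receptor substrate that is a known FoxO target, read 22.3, 33.7 and 31.2 CPM fed and 176, 168 and 269 fasted (log2 fold change 2.82 ± 0.24, adjusted p = 1.6e-07). The receptors Insr (0.87 ± 0.14) and Igf1r (0.87 ± 0.12) rose together with Tsc1 (0.64 ± 0.11), which restrains mTORC1. Igfbp5, an IGF-binding protein that muscle makes in large amounts (chromosome 1, 72857932–72874884), read 1146, 992 and 1045 CPM fed and 141, 136 and 174 fasted, a 7.07-fold fall (-2.82 ± 0.13, adjusted p = 1.1e-10). Igf1, the growth factor itself, read 9.50, 17.3 and 11.4 CPM fed and 6.71, 4.99 and 4.36 fasted (-1.22 ± 0.28, adjusted p = 0.0034). Fed and fasted libraries did not overlap in any of these genes, as in 41.4% of all genes tested. Of 22 members tested 10 rose and 3 fell (median 0.28).

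Of 18 FoxO factors and brakes on growth 9 rose and 2 fell (median 0.61). Foxo1 read 23.7, 41.4 and 40.4 CPM fed and 159, 153 and 183 fasted (2.23 ± 0.21, adjusted p = 6.7e-07), and Foxo3 read 53.8, 67.3 and 57.1 fed and 121, 131 and 185 fasted (1.29 ± 0.18, adjusted p = 3.7e-05). Eif4ebp1, which holds the cap-binding factor eIF4E when mTORC1 is off, read 13.8, 10.8 and 13.7 CPM fed and 73.6, 72.0 and 81.4 fasted (2.56 ± 0.20, adjusted p = 5.9e-08). Ddit4, the mTORC1 inhibitor REDD1, read 54.8, 25.9 and 28.2 CPM fed and 150, 163 and 362 fasted (2.62 ± 0.36, adjusted p = 4.0e-05). The levels of Foxo1, Foxo3, Eif4ebp1 and Ddit4 in fasted libraries were all above the fed range, and groups were apart in 41.4% of all genes tested. The falls were Foxo6, described above, and Sesn3, a sestrin (-0.86 ± 0.18).

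Rises outnumbered falls among genes of the proteasome, autophagy and lysosome. Of 37 proteasome subunits and ubiquitin genes 20 rose and none fell (median 0.40). Psmd11, a lid subunit, led them with 106, 120 and 110 CPM fed and 249, 232 and 309 fasted (1.23 ± 0.12, adjusted p = 1.1e-06), followed by Psmd4, the ubiquitin receptor (0.77 ± 0.11), Psmd3 (0.81 ± 0.12) and the ATPase Psmc2 (0.79 ± 0.13). Of 36 autophagy genes 18 rose and 3 fell (median 0.43). Gabarapl1, an ATG8 protein of the autophagosome membrane, read 16.1, 16.2 and 20.1 CPM fed and 67.1, 65.8 and 98.9 fasted (2.14 ± 0.15, adjusted p = 3.0e-08). Ulk1, the kinase that starts autophagy, read 96.1, 111 and 104 CPM fed and 345, 318 and 410 fasted (1.79 ± 0.15, adjusted p = 2.1e-07). The cargo receptors Sqstm1 (1.27 ± 0.13) and Nbr1 (0.79 ± 0.11) rose less, while Stbd1, which brings glycogen to lysosomes, fell (-1.44 ± 0.23). Of 38 lysosomal genes 16 rose and none fell (median 0.33), among them Npc1, which exports cholesterol (1.78 ± 0.18), Gaa, the acid glucosidase (1.05 ± 0.14), Lamp2 (0.86 ± 0.12), the pump subunit Atp6v1a (0.89 ± 0.13) and Flcn (1.23 ± 0.11). Without libraries 23 and 24 the rises in these lists numbered 13, 15 and 10, with medians of 0.48, 0.35 and 0.22.

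The control of pyruvate dehydrogenase, which lets glucose carbon into the TCA cycle, changed at the level of its kinase and phosphatases. Pdk4, the kinase that shuts the complex (chromosome 6, 5483351–5496309), read 380, 926 and 922 CPM fed and 5144, 5815 and 6166 fasted, a 7.69-fold rise (2.94 ± 0.25, adjusted p = 1.5e-07). Pdp1, the phosphatase that opens it, read 80.0, 84.2 and 68.3 CPM fed and 25.8, 24.4 and 29.7 fasted (-1.54 ± 0.18, adjusted p = 4.9e-06), whereas its less abundant relative Pdp2 rose from 3.17, 2.71 and 2.52 to 12.7, 9.34 and 8.29 CPM (1.85 ± 0.33, adjusted p = 0.00043). Fed and fasted libraries did not overlap in these 3 genes, which moved in both directions, and they did not in 41.4% of all genes tested. Of 13 genes of this step 2 rose and 2 fell (median -0.05), the other fall being the pyruvate carrier subunit Mpc2 (-0.41 ± 0.11). That is 15.4% in each direction, near the 14.5% and 12.4% of all genes tested.

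Fatty acid uptake and oxidation was the list with the most rises, 23 of 38 tested (60.5%, against 14.5% of all genes tested) and 1 fall (median 0.64). Its median was 0.48 without libraries 23 and 24. With 6 adipocyte markers as a covariate 15 members rose (median 0.38), against 17 autophagy genes. Cd36, the fatty acid transporter, read 385, 437 and 456 CPM fed and 851, 899.7 and 1002 fasted (1.11 ± 0.14, adjusted p = 1.6e-05). Mlycd, which removes malonyl-CoA, the inhibitor of fatty acid entry into mitochondria (1.28 ± 0.14) and the dehydrogenases Acadl (0.90 ± 0.12) and Acad11 (0.91 ± 0.11) rose as well. The fall was Acsl4, an acyl-CoA synthetase with a preference for arachidonic acid (-0.47 ± 0.16), which was not called without libraries 23 and 24, at a log2 fold change of -0.52. Among 20 PPAR-linked genes 12 rose and 3 fell (median 0.83). Acot2, the mitochondrial counterpart of Acot1, read 21.3, 25.9 and 18.7 CPM fed and 293, 260 and 186 fasted (3.49 ± 0.19, adjusted p = 9.2e-10). Acot1 and Acot2 are close copies on chromosome 12, so reads may have been split between them. Ucp3, a mitochondrial carrier of muscle (1.73 ± 0.17), Ucp2 (1.91 ± 0.24) and the triglyceride lipase Pnpla2 (1.44 ± 0.17) rose, and the coactivator Ppargc1b (-1.45 ± 0.27) and the receptor Esrrg (-0.77 ± 0.17) fell.

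Of 26 genes of glucose uptake and glycolysis 4 rose (15.4%) and 2 fell (7.69%), against 14.5% and 12.4% of all genes tested (median -0.10). Fbp2, the muscle fructose bisphosphatase, read 37.4, 34.8 and 32.1 CPM fed and 214, 197 and 93.7 fasted (2.27 ± 0.25, adjusted p = 3.9e-06). Tbc1d4 (1.98 ± 0.25) and Tbc1d1 (1.21 ± 0.18), the AKT substrates that hold GLUT4 inside the cell, rose, and Gapdh (-0.44 ± 0.12) and Tpi1 (-0.50 ± 0.14) fell. Of 15 glycogen genes 5 rose and 2 fell (median 0.26). Ugp2 (1.35 ± 0.27), Gbe1 (0.63 ± 0.13) and Gys1 (0.58 ± 0.13), which build glycogen, were higher. Phkg1 (-0.86 ± 0.13) and Pgm1 (-0.77 ± 0.14) were lower. Without libraries 23 and 24 the values of Ugp2, Gbe1 and Gys1 were 0.73, 0.75 and 0.44 (median of the list 0.088).

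Lipid synthesis genes split. Of 22 lipogenic genes 7 rose and 2 fell (median 0.08). Srebf1, the factor that insulin induces to drive lipogenesis, read 70.2, 51.2 and 53.7 CPM fed and 25.3, 20.7 and 26.3 fasted (-1.28 ± 0.14, adjusted p = 4.0e-06), and Scd2, a desaturase, fell with it (-1.05 ± 0.24). Acacb, the carboxylase isoform of the mitochondrial surface (1.53 ± 0.13), Dgat2 (2.13 ± 0.27) and Lpin1 (1.30 ± 0.14), which make triglyceride, rose in the same animals. Scd1, a desaturase that fat cells make in large amounts, read 7.79, 9.47 and 9.61 CPM fed and 211, 189.5 and 7.71 fasted (3.93 ± 0.75, adjusted p = 0.00085), so that its rise came from libraries 23 and 24. Without them 4 lipogenic genes rose and 3 fell (median -0.25). Of 22 cholesterol genes 3 rose (13.6%) and 4 fell (18.2%), near the 14.5% and 12.4% of all genes tested (median -0.24). Fdft1 (1.08 ± 0.12) and Mvd (1.59 ± 0.25) were among the higher and Dhcr7 (-1.74 ± 0.26) and Mvk (-0.87 ± 0.25) among the lower.

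Of 74 nuclear genes of oxidative phosphorylation (OXPHOS) 22 fell, none rose and 52 did not pass the test, and 66 had a value below 0 (median -0.33). The changes were small, as in the complex I subunits Ndufc2 (-0.62 ± 0.14), Ndufc1 (-0.55 ± 0.13), Ndufa8 (-0.48 ± 0.11) and Ndufb10 (-0.55 ± 0.15). Atp5e, of the ATP synthase, read 191, 234 and 185 CPM fed and 143, 146 and 144 fasted (-0.50 ± 0.13, adjusted p = 0.0095). Only 2 of the 74 were called without libraries 23 and 24 (median -0.28), and 11 after correction for GC content and exon length (median -0.19). Of the 13 mitochondrially encoded genes mt-Nd1 (-0.61 ± 0.13) and mt-Nd2 (-0.40 ± 0.13) fell, 15.4% against 12.4% of all genes tested (median -0.25). Without 23 and 24, the libraries with the smallest mitochondrial share, the values of mt-Nd1 and mt-Nd2 were -0.46 and -0.12 (median of the list -0.04). Of 22 genes of the TCA cycle 3 rose (13.6%, against 14.5% of all genes tested) and none fell (median 0.00). Idh2 (0.71 ± 0.18) and Ogdh (0.46 ± 0.12) were among the rises, at 0.58 and 0.42 without 23 and 24. The median of 74 cytosolic ribosomal protein genes was -0.14, with 2 falls, Rps2 and Rps10. Among 27 translation factors 11 rose and 3 fell (median 0.28), led by Eif4g3 (0.97 ± 0.13) and Eif4a2 (0.72 ± 0.10), and Eif4e itself fell (-0.39 ± 0.13). Without 23 and 24 the rises among translation factors numbered 4 (median 0.15).

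**Figure D3:**
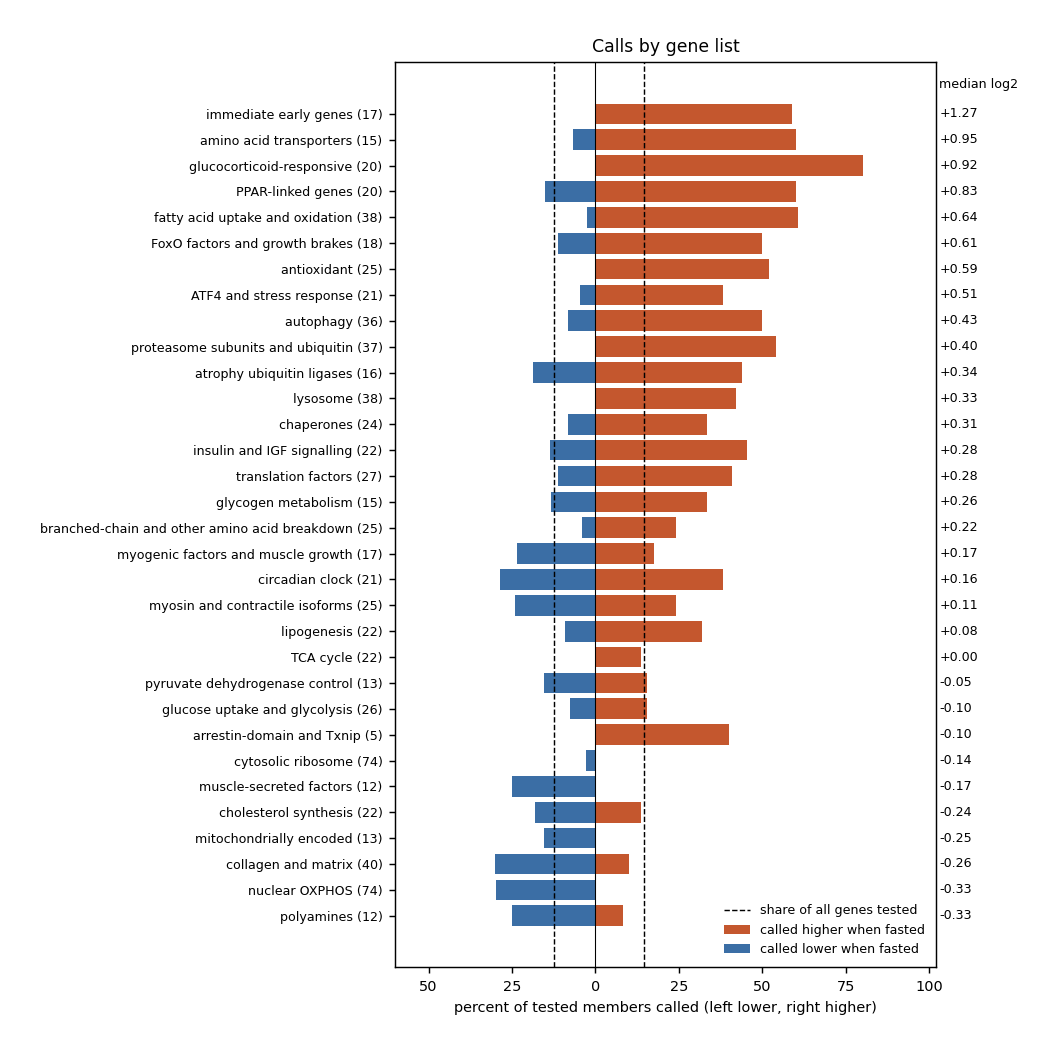
Percent of the tested members of 32 gene lists that were called higher (orange, right) or lower (blue, left) in fasted controls, with the number tested in parentheses, the median log2 fold change at the right margin and, dashed, the 14.5% and 12.4% of all genes tested. Glucocorticoid-responsive genes have 16 of 20 members called higher, and nuclear OXPHOS has 22 of 74 called lower and none higher.

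Glucocorticoid-responsive genes held the highest share of rises of any list, 16 of 20 tested with no fall (median 0.92). The metallothionein Mt1 read 8.40, 10.7 and 10.1 CPM fed and 85.2, 98.8 and 91.6 fasted (3.25 ± 0.19, adjusted p = 1.7e-09), and Mt2 read 1.22, 1.69 and 2.28 fed and 18.9, 19.8 and 24.1 fasted (3.58 ± 0.21, adjusted p = 1.7e-09). Cebpd, a factor induced by the receptor, read 23.0, 13.7 and 20.3 CPM fed and 95.5, 175 and 226 fasted (3.11 ± 0.41, adjusted p = 2.2e-05). Zbtb16, another induced factor, rose by 1.54 ± 0.25, from a fed range in which library 16 was low (62.3 CPM against 153 and 178). Fed and fasted libraries did not overlap in any of these 4 genes, as in 41.4% of all genes tested. In floxed controls of the p110α line 5 of 20 genes of this list rose and 2 fell (median 0.34). There 2127 of all 12760 genes tested rose and 2029 fell. The test between lines called 6 of 20, all with a more positive response in the p110β line, against 1.56% of all genes.

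Antioxidant genes rose in 13 of 25 cases without a fall (median 0.59). Srxn1, sulfiredoxin, which restores oxidized peroxiredoxins (chromosome 2, 152105516–152111376), had the lowest adjusted p of the genes named here. It read 16.4, 13.4 and 16.2 CPM fed and 144, 157 and 180 fasted, a 10.4-fold rise (3.37 ± 0.14, adjusted p = 2.2e-11). Catalase, Cat, read 40.5, 50.2 and 45.1 CPM fed and 185, 168 and 151 fasted (1.90 ± 0.14, adjusted p = 3.0e-08). Nfe2l2, the factor NRF2 that drives such genes, rose by 1.55 ± 0.15.

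Amino acid transporters rose in 9 of 15 cases with 1 fall (median 0.95). Slc7a2, a carrier of basic amino acids, read 61.6, 85.2 and 79.4 CPM fed and 255, 281 and 648 fasted (2.39 ± 0.28, adjusted p = 6.5e-06). Slc38a2, which carries glutamine and alanine, rose by 0.95 ± 0.15 and its relative Slc38a4 fell (-1.28 ± 0.27). Amino acid breakdown held 6 rises (24.0%) and 1 fall (4.00%) in 25 genes, against 14.5% and 12.4% of all genes tested (median 0.22). Glul, glutamine synthetase, read 149, 227 and 278 CPM fed and 517, 610 and 892 fasted (1.63 ± 0.37, adjusted p = 0.0035). Ppm1k, the phosphatase that activates branched-chain keto acid breakdown, was lower (-0.63 ± 0.16). Of 21 ATF4 and stress genes 8 rose and 1 fell (median 0.51), namely Ppp1r15a (1.89 ± 0.19), Chac1 (1.52 ± 0.32) and Xbp1 (0.76 ± 0.14) among the rises and the serine enzyme Psph as the fall (-0.88 ± 0.14). The median of this list was 0.08 without 23 and 24. Chaperones held 8 rises and 2 falls in 24 (median 0.31), led by Hspb7 (2.48 ± 0.31) and Bag3 (0.85 ± 0.11), and the median was 0.17 without 23 and 24. Polyamine enzymes held 1 rise (8.33%) and 3 falls (25.0%) in 12, against 14.5% and 12.4% of all genes tested (median -0.33). Amd1, the S-adenosylmethionine decarboxylase, read 854, 1359.6 and 1139.5 CPM fed and 253, 277 and 257 fasted (-2.09 ± 0.20, adjusted p = 7.7e-07), and Smox, spermine oxidase, fell (-1.35 ± 0.19). Amd2, a near copy of Amd1 whose reads may be shared with it, is uncertain.

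Circadian clock genes were called in 14 of 21 cases, 8 higher and 6 lower (median 0.16). Nr1d1, the repressor REV-ERBα, read 66.0, 63.8 and 65.8 CPM fed and 19.5, 19.2 and 16.9 fasted (-1.81 ± 0.12, adjusted p = 8.4e-09), and Bhlhe41 fell (-1.99 ± 0.23). Cry2 (1.54 ± 0.16) and Nfil3 (1.68 ± 0.22) rose. No source used here gives the hour at which the tissue of either group was collected.

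Immediate early genes rose in 10 of 17 cases with no fall (median 1.27), and the 3 given next were highest in library 25. Fos read 2.92, 3.55 and 3.24 CPM fed and 24.9, 21.2 and 95.0 fasted (3.85 ± 0.61, adjusted p = 0.00016), Nr4a3 read 3.04, 4.74 and 4.69 fed and 27.2, 23.7 and 131 fasted (3.87 ± 0.53, adjusted p = 3.3e-05), and Maff read 3.29, 3.89 and 4.57 fed and 22.1, 21.1 and 33.3 fasted (2.69 ± 0.30, adjusted p = 3.7e-06). All 3 genes were above the fed range in libraries 23 and 24 as well. Groups were apart in 41.4% of all genes tested. Atf3, at 5.69, 4.74 and 40.7 CPM fasted, was not called without library 25. Of the arrestin-domain genes Arrdc3 (2.03 ± 0.23) and Arrdc2 (0.65 ± 0.15) rose, 2 of 5 tested (40.0%, against 14.5% of all genes tested) with no fall (median -0.10).

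Of 40 collagen and matrix genes 12 fell, 4 rose and 24 did not pass the test (median -0.26). Col3a1, a fibrillar collagen, read 112, 103 and 83.6 CPM fed and 49.5, 42.0 and 47.7 fasted (-1.10 ± 0.15, adjusted p = 3.7e-05). Col15a1, of the basement membrane zone (-1.08 ± 0.19), Col5a1 (-0.86 ± 0.16) and the protease inhibitor Timp2 (-0.65 ± 0.12) fell, while Timp3 rose (0.74 ± 0.17). In bulk tissue fewer cells of a type and less RNA per cell cannot be told apart.

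Among contractile isoforms 6 of 25 rose and 6 fell, 24.0% each way, against 14.5% and 12.4% of all genes tested (median 0.11). The fast regulatory and alkali chains Mylpf (-0.69 ± 0.12) and Myl1 (-0.74 ± 0.12) and the tropomyosin Tpm1 (-0.80 ± 0.14) fell, with Myl1 at 4583, 5108 and 4729.8 CPM fed and 3007, 2685 and 2925 fasted. Myh2, the IIA myosin, read 219, 167 and 163 CPM fed and 823, 782 and 503 fasted (1.94 ± 0.33, adjusted p = 0.00029), and the Z-disc protein Actn2 rose (1.29 ± 0.21). Myh7, the slow myosin, was called (3.36 ± 0.99) from library 25 alone, with 35.0 CPM there against 1.27 and 1.79 in 23 and 24 and 1.22, 1.01 and 1.32 fed, and was not called without it. Of 17 myogenic factors 3 rose (17.6%) and 4 fell (23.5%), against 14.5% and 12.4% of all genes tested (median 0.17). Myod1 read 14.7, 15.9 and 15.6 CPM fed and 5.57, 6.78 and 4.36 fasted (-1.46 ± 0.18, adjusted p = 1.3e-05), whereas Myog read 1.46, 1.35 and 1.56 fed and 3.54, 3.33 and 10.6 fasted (1.96 ± 0.44, adjusted p = 0.0028). Of 12 muscle-secreted factors 3 fell (25.0%, against 12.4% of all genes tested) and none rose (median -0.17). The falls included Ostn, musclin, from 22.8, 19.4 and 12.9 to 3.54, 2.94 and 8.29 CPM (-1.92 ± 0.30, adjusted p = 0.00012) and Fndc5, which encodes the precursor of irisin (-0.44 ± 0.14).

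Markers of skeletal muscle defined every library, with Ckm, muscle creatine kinase, at 6690.2–11200 CPM. Of 12 muscle markers 5 were called, 2 higher (16.7%) and 3 lower (25.0%), against 14.5% and 12.4% of all genes tested. Few markers of other cells of the tissue were called. None of 6 macrophage, 10 endothelial, 7 smooth muscle and 4 erythroid markers was called, as against 26.9% of all genes. Other settings called a few of them: upper-quartile scaling 2 endothelial markers and 1 smooth muscle marker lower, the GC and length correction 2 endothelial markers lower, and the covariate of 6 adipocyte markers 1 macrophage marker lower. The fit without 25 called 1 endothelial and 1 smooth muscle marker lower, and that without 23 and 24 called 1 macrophage and 1 endothelial marker higher. Of 8 fibroblast markers Col6a3 fell (-0.93 ± 0.20), of 5 Schwann cell markers Prx, a myelin protein, rose (0.82 ± 0.26), and of 6 satellite cell markers Sdc4 rose (1.23 ± 0.18) while Itga7 (-0.52 ± 0.11) and Pax7 (-1.30 ± 0.39) fell.

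Adipocyte markers set libraries 23 and 24 apart. Plin1, which coats the fat droplet, read 26.1 and 22.5 CPM in 23 and 24, 0.291 in 25 and 0, 0.338 and 0.360 in the fed libraries. Cidec, a droplet protein, read 34.2 and 30.7 CPM in 23 and 24 and at most 0.507 in the other 4. Cfd, the adipocyte protease adipsin, read 57.2 and 52.7 CPM in 23 and 24, 1.02 in 25 and 0.122, 1.35 and 2.88 in the fed libraries. Thus 23 and 24 stood above all 4 other controls. Lep, leptin, had 0 reads in each fed library, 3 reads in library 25 and 13.0 and 13.2 CPM in 23 and 24, and Retn, resistin, read 2.28 and 3.07 CPM there with 0 reads fed. The summed level of Adipoq, Plin1, Cidec, Lep, Retn and Cfd was 152 and 147 CPM in 23 and 24, 2.62 in 25, 0.243–4.09 in the fed controls and 0.124–9.06 in the 8 M-p110βKO libraries. Adrb3, the adrenergic receptor of fat, followed the same pattern at 3.92 and 4.22 CPM against at most 0.120, and Cidea and Ucp1, the brown fat markers, were at or under 0.886 CPM everywhere. Fabp4, which endothelial cells also express, read 137, 117 and 131 CPM fed and 240, 280 and 171 fasted (0.84 ± 0.17), Lipe, the hormone-sensitive lipase that muscle also has, read 19.2, 24.0 and 30.0 fed and 59.6, 53.9 and 39.7 fasted (1.06 ± 0.19), and Pparg did not pass the test (0.67 ± 0.26, adjusted p = 0.06).

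Of the 13 adipocyte markers listed 7 had enough reads to be tested, and 5 rose and 1 fell (median 1.06). Without libraries 23 and 24 none rose and Car3 fell (median 0.36). Car3 is carbonic anhydrase 3, which muscle fibers make in large amounts too, and it read 3017, 2318 and 2266 CPM fed and 348, 312 and 1360.5 fasted (-1.91 ± 0.40, adjusted p = 0.0016). It held 38.8–95.0% of the sum of the 13 markers, so this sum went down, from 3177, 2464 and 2436 CPM to 811, 804 and 1578 (log2 difference -1.40, exact two-sided permutation p = 0.1, the smallest that 3 against 3 can give). Without Car3 the sum of the other 12 went up, from 160, 146 and 170 CPM to 464, 492 and 218 (1.21, exact permutation p = 0.1), and that of the 6 named above by 3.95 (exact permutation p = 0.2), since library 25 lay within the fed range.

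**Figure D4:**
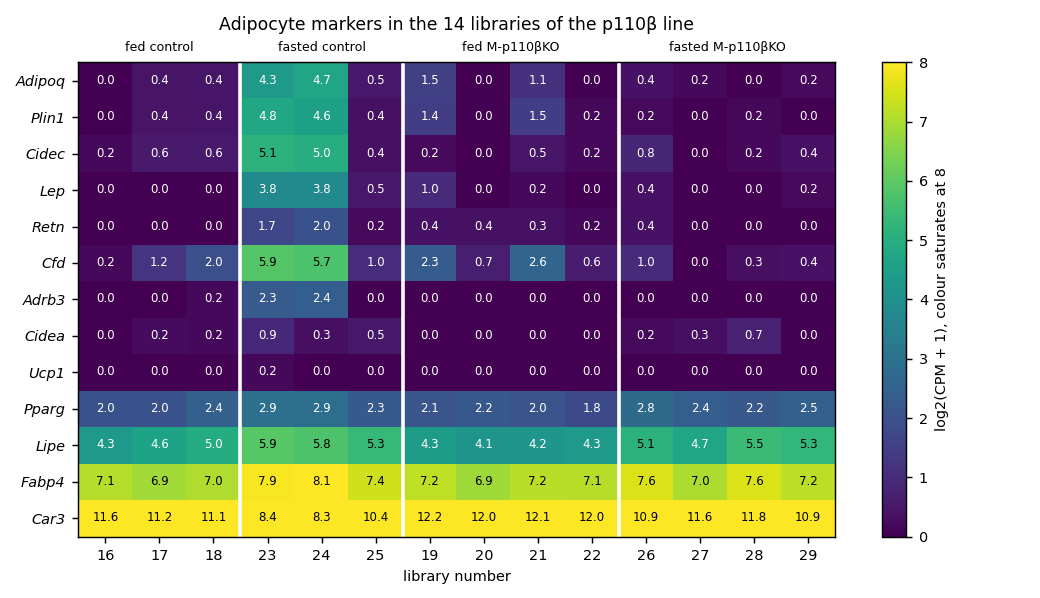
Levels of the 13 adipocyte markers, as log2(CPM + 1) in color and in figures, in each of the 14 libraries of the p110β line, grouped by genotype and feeding. Adipoq, Plin1, Cidec, Lep, Retn, Cfd and Adrb3 stand out in fasted controls 23 and 24, and Car3 is lowest in the same libraries.

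Library 25 stood apart in its own way. Liver genes, looked at after their values were seen, were read in it: Alb, serum albumin, at 19.3 CPM against 0.633 and 0.128 in 23 and 24 and 0 reads in all fed libraries, and Cyp3a11, a liver cytochrome, at 4.80 CPM. The summed level of 15 liver genes was 41.4 CPM in library 25, 0.759 and 0.640 in 23 and 24 and 0.120–0.169 in the fed controls, and it reached 57.5 CPM in fasted M-p110βKO library 28. Of the 15, Alb and Cyp3a11 had enough reads to be tested and neither was called (adjusted p = 0.058 and 0.14). Slow-fiber genes, 8 of them also chosen after their values were seen, summed to 315 CPM in library 25 against 147 and 146 in 23 and 24 and 128–139 in the fed controls. The largest members were Atp2a2 (87.8, 81.0 and 127 CPM in 23, 24 and 25) and Tpm3 (36.9, 39.9 and 68.8). Myl3 read 2.91, 4.61 and 41.3 CPM there against 29.2, 13.7 and 20.8 in the fed controls, so it was also low in 23 and 24. Myl2 did not set library 25 apart (8.98, 7.17 and 8.43) and was higher in all 3 fasted libraries than in the fed ones (1.22, 0.677 and 0.240). Among called genes, 16 were over 4-fold higher in the mean of 23 and 24 than in 25 (with 0.5 CPM added), among them Cfd, Plin1, Adipoq and Hp, and 12 were over 4-fold higher in 25, among them Myh7, Atf3, Nr4a3, Fos and Car3. In 38 of the 1780 rises library 25 lay at or below the highest fed library, and in 31 of the 1517 falls at or above the lowest. Adipocyte markers were used as a covariate in fits given below, and liver and slow-fiber genes were not. The part of adipocyte, liver or slow-fiber RNA in the other changes was not tested. Log2 fold changes were also taken for Trim63, Fbxo32, Pdk4, Irs2, Igfbp5 and Srxn1, strongly changed genes that do not stand for the other calls. With library 25 as the only fasted control these values were 3.70, 2.50, 3.06, 3.22, -2.61 and 3.54. With 23 and 24 alone these values were 3.48, 2.24, 2.89, 2.57, -2.94 and 3.28.

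**Figure D5:**
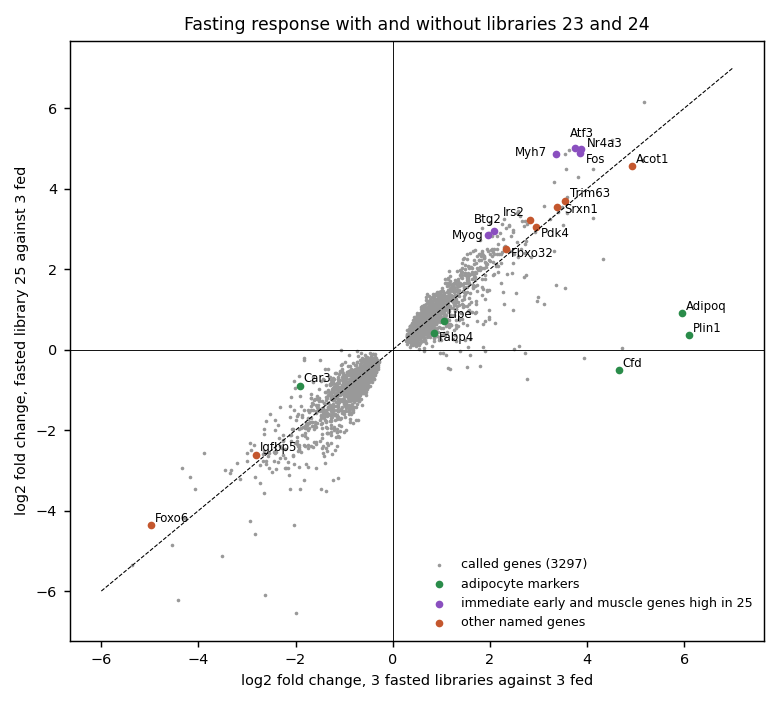
Log2 fold change of the 3297 called genes in the fit of all libraries (x axis) against the fit without fasted controls 23 and 24 (y axis), in which library 25 stands for the fasted controls, with the line of equal values dashed. Adipoq, Plin1 and Cfd drop from 4.65–6.10 to between -0.51 and 0.91, while Trim63, Pdk4, Igfbp5 and Srxn1 stay near the line.

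The fasting response of these controls was set against that of M-p110βKO of the same line and of the floxed controls of the p110α line. The genotype by fasting test in the p110β line called 13 of 12249 genes (0.106%, 1563 at an unadjusted p under 0.05), 5 with a more positive response in M-p110βKO and 8 with a more negative one. Srxn1, described above, rose in both genotypes, by 3.37 in controls and by 2.23 in M-p110βKO on the log2 scale (difference -1.14 ± 0.18, adjusted p = 0.022). The test between the lines called 199 of 12760 genes (1.56%, 2211 at an unadjusted p under 0.05). Nr1d1, described above, averaged 64.9 ± 1.15 CPM (SD, n = 3) in fed and 18.3 ± 1.43 (n = 3) in fasted controls of the p110β line, on a scale set over both lines. In the p110α line it averaged 25.3 ± 6.98 CPM (n = 4) in fed and 33.5 ± 3.65 (n = 4) in fasted controls, so the responses went opposite ways (difference -2.21 ± 0.21, adjusted p = 4.5e-07). These counts moved widely with the libraries left out: the genotype test gave 0–141 calls, the most without library 25, and the test between lines 56–438, the fewest without library 16 and the most without library 25. A call in these controls and not in the others does not show a difference. Trim63 passed neither test (adjusted p = 0.57 by genotype and 0.28 by line), and nor did Pdk4 (0.37 and 0.11). Other genes described above passed the test between lines. They include Ucp3 (difference 1.82 ± 0.33, adjusted p = 0.0044), Mt2 (3.15 ± 0.63, adjusted p = 0.011) and Fos (4.09 ± 0.98, adjusted p = 0.027). Ucp3 changed by -0.10 in the p110α line and Mt2 by 0.42.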

How the data were processed

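RNA was extracted from TA muscle with Trizol, libraries were made with an mRNA kit, and the submitters' processing notes name STAR, Subread featureCounts and GRCm38. Their versions were not given in the sources used here. Raw counts per gene were deposited by the authors for 48023 genes, and the label of each column gave its mouse. GENCODE M21 supplied symbols, coordinates, GC content and exon lengths, and left 713 gene IDs without a symbol (0.0292% of counts).

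The 14 libraries of the p110β line were fitted together, with 1 coefficient per group, in edgeR 4.0.16 (R 4.3.3). The filter was filterByExpr with a min.count of 10 and a min.total.count of 15, the scaling was TMM, and the contrast of fasted against fed floxed controls was tested with the quasi-likelihood F test (SE = absolute log2 fold change divided by the square root of F, threshold of the Benjamini-Hochberg adjusted p 0.05). The difference between lines was fitted on all 29 libraries. The script was tested on simulated counts. Depth of 5859311–8269530 reads limits genes under about 1 CPM.

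The 41 gene lists (915 entries) were written from general knowledge, and members and lists were chosen with earlier results of these data known. Named genes were the 12 largest rises and 12 largest falls among genes with separate groups and a mean of 1 or more in log2 CPM, up to 5 called members of each list by adjusted p with up to 2 called against the majority, every adipocyte marker, Pik3ca, Pik3cb, and the 6 lowest adjusted p of each difference test. Liver and slow-fiber genes were added after their values were seen. The summed adipocyte level was compared on log2(CPM + 1) with an exact two-sided permutation test. Alternatives were DESeq2 1.42.0 size factors and Wald test, upper-quartile factors, limma-voom (limma 3.58.1), no filter, a spline correction for GC content and exon length, no mitochondrially encoded or 20 most abundant genes, a covariate for adipocyte markers, the 6 libraries or the 14 floxed controls alone, and the omission of libraries. A covariate of 6 markers and the sum without Car3 were added after the data were seen. Promoters came from RefSeq (GRCm38.p6). Some genes that the naming rule selects are not reported here.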

Additional observations from a re-analysis of the deposited data

Results flagged for a closer look

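Responses that differed between groups by the test of the difference itself are given here for 5 of the 6 genes of lowest adjusted p in each test. Between genotypes of the p110β line, the response of M-p110βKO differed from that of the floxed controls by -1.14 ± 0.18 (log2, SE, adjusted p = 0.022 by edgeR's quasi-likelihood test) for the antioxidant enzyme Srxn1, which rose by 3.37 in controls and 2.23 in M-p110βKO. The difference was 2.95 for Gm45221, 3.67 for Cyp26b1, a retinoic acid hydroxylase, 1.06 for Gm13340 and 1.30 for Esrrg, the nuclear receptor, with adjusted p from 0.022 to 0.039. For Gm45221, Cyp26b1 and Gm13340 fasting changed the controls by -0.06, -0.56 and -0.30, none of which passed the test, and the M-p110βKO by 2.88, 3.11 and 0.76. No gene was called in this test with limma-voom or after the GC and length correction.

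Between floxed controls of the lines, the response of the p110β line minus that of the p110α line was -2.21 ± 0.21 for the clock repressor Nr1d1 (adjusted p = 4.5e-07), 1.97 ± 0.24 for Prickle3, -1.26 ± 0.19 for the junction protein Afdn, 1.32 ± 0.21 for Parp8 and -3.04 ± 0.48 for Rasl11a, with adjusted p from 4.1e-05 to 0.001 for the last 4. In each of these 5 genes the response had opposite signs in the lines: Prickle3 changed by 1.24 in the p110β line and -0.73 in the p110α line, and Rasl11a by -1.43 and 1.60. The lines differ in the floxed gene and in background, which cannot be told apart here.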

How the results depend on the processing

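The fasting response of the floxed controls (3297 calls) was called in 2095 genes, 841 of them falls, without libraries 23 and 24, and in 2140, 883 of them falls, with 6 adipocyte markers as a covariate, which was added after the data were seen. The listed markers as a covariate left 506 calls, 370 higher and 136 lower. That covariate largely follows Car3, which held 38.8–95.0% of the summed list in the 6 libraries and itself fell with fasting. Omitting 1 library at a time gave 2452–2829 calls. Upper-quartile factors gave 1453 rises and 1976 falls in place of 1780 and 1517. The genotype test (13 calls) gave 377 without a filter, 36 with DESeq2, 0 with limma-voom, 0 after the GC and length correction, 7 without 23 and 24, and 0–141 with 1 library omitted. The test between lines (199 calls) gave 714 without a filter, 378 with DESeq2, 29 and 106 with the longer and shorter covariate, 43 without 23 and 24, and 56–438 with 1 library omitted. The causes were not tested. The summed adipocyte level (-1.40) turned to 3.95 for 6 markers and 1.21 without Car3. Among named genes the sign turned for Adipoq (-1.65), Plin1 (-2.0), Cfd (-3.30) and Car3 (0.0098) with the listed markers as a covariate, for Plin1 (-0.37) and Cfd (-1.10) with 6 markers, and for Cfd (-0.51) without 23 and 24. Of the 194 called named genes 173 stayed called in each omission of 1 library. No paired analysis was possible because the labels give every library a number of its own, which no other group shares. Precision is limited by 3 mice per group and by libraries that differ in adipocyte and liver transcripts, and with 23 and 24 left out the lone fasted control is assumed to vary like the other groups.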

Other observations

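Pck1, the cytosolic phosphoenolpyruvate carboxykinase of liver, kidney and fat, was looked at after its values were seen. It read 44.3 and 40.8 CPM in fasted controls 23 and 24, 0.873 in fasted control 25 and 0, 0.676 and 0.361 in the fed controls. Scd1, Nnat and Cyp2e1 were also higher in 23 and 24 than in 25. Col1a1, the main fibrillar collagen, went the other way among the fasted mice, at 18.5 and 18.4 CPM in 23 and 24 and 48.6 in 25, against 45.5, 37.5 and 41.9 in the fed controls. Col12a1, a collagen of tendon and fascia, read 2.40 and 1.92 CPM in 23 and 24 and 13.2 in 25, against 1.46, 1.52 and 1.80 fed. The fasted controls thus differed among themselves in fat, liver and slow-fiber transcripts and in these collagens at once, with 23 and 24 alike. The summed level of the whole collagen and matrix list did not set them apart, at 1577, 1541 and 1561 CPM in 23, 24 and 25.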
